A study of Mus musculus with 8 samples.

Results

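NF-kB is a family of dimeric transcription factors that switch on inflammatory genes. The genes described here are its 5 Rel-family subunits, Nfkb1, Nfkb2, Rel, Rela and Relb, and 4 genes that restrain it, Nfkbia, Nfkbiz, Tnfaip3 and Zc3h12a. They were chosen by gene symbol, and 9 of 9 were among the 56748 genes listed in the count table and among the 11222 that passed the filter on low counts. The RNA came from spleen monocytes with high surface Ly6C, the classical, inflammatory kind in mice, which were sorted on day 7 of an induced aneurysm. There were 4 libraries from Olfr2 knockout (KO) mice and 4 from wild-type (WT) mice, and the study asks what Olfr2, an olfactory receptor gene, does in monocyte recruitment to an abdominal aortic aneurysm. Both genotypes had the aneurysm, and no library without one was analysed here. The labels do not give the animals' age or sex, the strain, the way the aneurysm was induced or the design of the knockout allele. Whether the libraries represent 8 different animals is not stated either, and the p-values therefore measure a spread among libraries that may be technical.

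In resting cells most NF-kB dimers are held in the cytoplasm by IkB proteins. Stimulation of receptors such as TLR4, the TNF receptors or the IL-1 receptor activates the IKK kinase complex, IkB is degraded and dimers of RelA, c-Rel and p50 enter the nucleus. A slower, alternative route processes the p100 precursor to p52, which pairs with RelB. NF-kB then induces its own inhibitors, and in monocytes this feedback limits the production of TNF, IL-1 and chemokines.

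Total counts lay between 17258427 and 21728794 in KO libraries and between 16111725 and 19048245 in WT libraries. Olfr2 had 0 counts in 8 of 8 libraries, which allows levels of up to 0.139 to 0.186 CPM by library (counts scaled to library size with TMM factors; a limit on counting error), so that it could not check the genotypes. The monocyte markers Ly6c2 and Lyz2 were abundant in all 8 libraries, at 4050 to 6370 CPM for Ly6c2. The T cell markers summed to between 0.897 and 1.84 CPM in KO and between 0.872 and 1.32 CPM in WT. The 10 B cell markers summed to between 206 and 363 CPM in KO and between 181 and 372 CPM in WT, nearly all of it Ighm (187 to 328 CPM in KO and 164 to 336 CPM in WT) and Cd79b (17.0 to 33.4 CPM in KO and 16.1 to 35.0 CPM in WT), while Pax5, Ebf1 and Fcmr had 0 counts in all libraries. KO 1 and KO 2 stood apart by neutrophil genes: the 12 markers summed to 2250 and 3460 CPM there, to 801 and 620 CPM in KO 3 and KO 4, and to between 285 and 599 CPM in WT. Much of the excess was S100a8 (795 and 1580 CPM in KO 1 and KO 2, 24.3 to 73.9 CPM elsewhere) and S100a9 (478 and 788 CPM, 7.29 to 31.6 CPM elsewhere). Camp, Ngp and Elane were raised there too, while Csf3r was not (29.3 and 31.8 CPM, 20.7 to 49.5 CPM elsewhere). Mmp8 had 229 to 819 CPM over all libraries and made up most of the sum in KO 3 and KO 4. Ly6g, Retnlg and Cxcr2 had at most 2.75 CPM in any library and were highest in KO 1 and KO 2. So were Ltf (6.64 and 4.67 CPM there) and Mpo (3.35 and 5.35 CPM). The count table's column names carry numbers of a 1600 series (KO 1, KO 2, WT 1 and WT 2) and a 1700 series (KO 3, KO 4, WT 3 and WT 4), whose meaning the labels do not state. KO 1 and KO 2 are thus the 2 KO libraries of the 1600 series, so that within that series these neutrophil genes and the genotype cannot be told apart.

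NF-kB is known to control several of these genes through kappaB sites in their own promoters, and such promoters are shown first. The RefSeq table on GRCm38.p6 held windows from 250 bases before to 50 bases after a start site for 6 of the 9 genes, with 9 start sites among them. Nfkb1, Nfkbiz and Relb had no entry. The 4 windows below are those of Nfkbia, Nfkb2, Tnfaip3 and Rel that hold a match to the narrow kappaB motif, GGG followed by any 2 bases and TTTCC. Capitals mark each match on either strand to a wider motif, GGG followed by any 3 bases and TTCC, which contains the narrow one, and each sequence reads 5′ to 3′ on the gene's strand.
Nfkbia (chr12:55492598-55492897, minus strand): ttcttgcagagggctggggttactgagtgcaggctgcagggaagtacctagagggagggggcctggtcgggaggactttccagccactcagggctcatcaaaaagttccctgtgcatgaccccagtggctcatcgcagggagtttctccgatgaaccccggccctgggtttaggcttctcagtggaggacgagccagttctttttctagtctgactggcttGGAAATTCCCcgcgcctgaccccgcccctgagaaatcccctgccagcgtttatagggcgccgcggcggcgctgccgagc
Nfkb2 (chr19:46304487-46304786, plus strand): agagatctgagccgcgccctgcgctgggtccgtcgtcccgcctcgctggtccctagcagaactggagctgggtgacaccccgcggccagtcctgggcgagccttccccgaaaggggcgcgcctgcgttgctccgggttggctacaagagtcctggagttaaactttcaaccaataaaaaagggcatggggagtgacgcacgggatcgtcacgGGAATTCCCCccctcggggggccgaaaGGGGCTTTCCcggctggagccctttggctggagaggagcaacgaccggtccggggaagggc
Tnfaip3 (chr10:19015361-19015660, minus strand): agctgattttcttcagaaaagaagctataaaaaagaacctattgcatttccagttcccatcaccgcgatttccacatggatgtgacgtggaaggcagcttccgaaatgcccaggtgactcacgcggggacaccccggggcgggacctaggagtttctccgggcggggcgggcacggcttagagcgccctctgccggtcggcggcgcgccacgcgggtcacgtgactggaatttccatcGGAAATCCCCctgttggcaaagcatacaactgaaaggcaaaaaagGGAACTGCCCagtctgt
Rel (chr11:23770920-23771219, minus strand): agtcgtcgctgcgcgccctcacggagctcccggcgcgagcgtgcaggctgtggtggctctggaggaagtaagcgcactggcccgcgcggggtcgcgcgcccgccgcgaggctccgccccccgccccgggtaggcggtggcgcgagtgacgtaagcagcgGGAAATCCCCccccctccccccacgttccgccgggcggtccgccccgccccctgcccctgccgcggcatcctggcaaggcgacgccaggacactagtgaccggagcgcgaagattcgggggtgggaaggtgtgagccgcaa

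The narrow motif was present in 6 of the 9 windows, from 4 of the 6 genes, and in 1.63% of all 32851 promoter windows of the same length. The wider motif was present in 7 of the 9 windows, from the same 4 genes, and in 5.56% of all windows. Another form, GGG followed by any 3 bases and TCCC, was searched on both strands too and was found in 3 of the 9 windows (Nfkb2, Rel and Tnfaip3) and in 5.55% of all windows, and it overlapped marked matches in Nfkb2 and Rel. The windows of Rela and Zc3h12a held none of the 3 forms. In Nfkbia the match GGAAATTCCC starts 29 bases before the start site, and in Tnfaip3 GGAAATCCCC starts 12 bases before it. In Nfkb2 the window shown holds a pair of marked matches, starting 38 and 11 bases before the start site, and 2 further windows of Nfkb2, which overlap each other, share 1 GGGACTTTCC site. In Rel the match is GGAAATCCCC. These matches are letters in a window and no measure of binding, and the motifs and windows were chosen with the known biology of these promoters in view.

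The inhibitor Nfkbia was by far the most abundant of the 9 transcripts when counts were set per kilobase of the longest annotated transcript. It averaged 339 ± 124 CPM per kilobase in KO and 455 ± 88.5 CPM per kilobase in WT (SD, n = 4 each). Among the subunits, Rela, the main activating subunit, stood highest, with 11.6 ± 2.01 CPM per kilobase in KO and 14.8 ± 1.30 CPM per kilobase in WT. Nfkb1, the precursor of p50, followed with 9.24 ± 2.60 CPM per kilobase in KO and 10.8 ± 2.28 CPM per kilobase in WT, and its range overlapped that of Rela in both genotypes. Relb had 4.51 ± 1.17 CPM per kilobase in KO and 8.20 ± 1.65 CPM per kilobase in WT, and Nfkb2 had 3.32 ± 1.14 CPM per kilobase in KO and 4.54 ± 0.952 CPM per kilobase in WT. The lowest 4 were Nfkbiz (2.31 ± 0.958 CPM per kilobase in KO and 3.65 ± 1.73 in WT), Rel (1.36 ± 0.196 in KO and 1.68 ± 0.438 in WT), Zc3h12a (0.697 ± 0.202 in KO and 1.06 ± 0.371 in WT) and Tnfaip3 (0.623 ± 0.274 in KO and 0.894 ± 0.293 in WT). Of the 8 neighbouring pairs in this order, the ranges did not overlap in either genotype for Nfkbia over Rela alone. For Nfkb1 over Relb, Nfkbiz over Rel and Rel over Zc3h12a they were apart in KO and overlapped in WT, and for Relb over Nfkb2 they were apart in WT and overlapped in KO. The place of Nfkb1 rests on the transcript chosen: with all its exons merged (12061 bases, against 4149 for its longest transcript) it stood at 3.18 CPM per kilobase in KO and 3.71 CPM per kilobase in WT, below Relb.

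**Figure D1:**
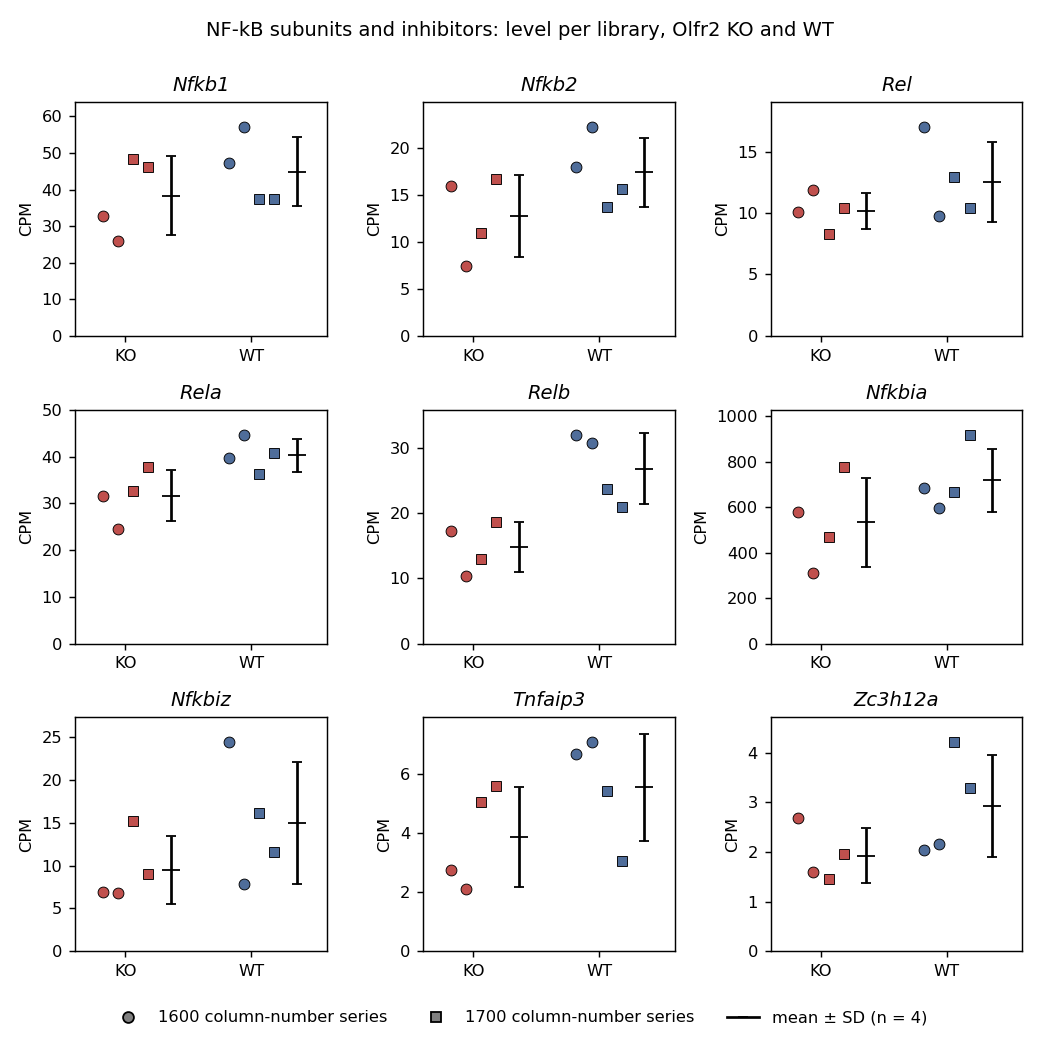
CPM of the 9 genes (vertical axes, each from 0) in the 4 KO libraries, left, and the 4 WT libraries, right, with circles for the 1600 and squares for the 1700 column-number series and bars for mean ± SD. Relb is the gene whose KO values, 10.3 to 18.6 CPM, all lie below its WT values, 20.9 to 32.0 CPM.

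The comparison of KO with WT asks whether loss of Olfr2 came with a change in this circuit. Relb showed the largest difference in relation to its error, and yet 0 of the 9 genes passed a threshold of 0.05 (edgeR, quasi-likelihood test with Benjamini-Hochberg adjustment over the whole table). Of all tested genes 1.06% passed, 0.838% as lower and 0.223% as higher in KO. At an unadjusted p under 0.05, 2 of the 9, Relb and Rela, were lower in KO, against 12.0% of all tested genes. The fitted log2 change was negative for 9 of 9, against 50.4% of all tested genes, with a median of -0.45 against -0.004 over all tested genes. Of all tested genes, 15.8% had a change at or below that median. Without KO 1 and KO 2, 8 of the 9 changes were negative, the exception being Nfkb1 at 0.09. Monocyte markers were described beside these genes: 11 of 12 nonclassical monocyte markers were negative, with a median log2 change of -0.33 and sums of 400 to 581 CPM in KO and 535 to 617 CPM in WT. Of 12 classical markers 10 were positive, with a median of 0.16 and sums of 141000 to 183000 CPM in KO and 118000 to 137000 CPM in WT, and 0 genes of either list passed (edgeR). Lyz2 (96500 to 125000 CPM over all libraries) and Chil3 made up most of the classical sums. Chil3 had 17400 to 44000 CPM in KO, highest in KO 1 and KO 2, and 6820 to 12300 CPM in WT. Csf1r, Itgam, Vcan and Mgst1 overlapped between genotypes. Adgre4 and Treml4 made up most of the nonclassical sums and overlapped too. The part of the monocyte markers in the 9 changes was not tested. Several of the 9 genes are controlled by the same factor, so that the 9 signs are not independent of each other, and they come from the same 8 libraries.

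Relb (ENSMUSG00000002983; GRCm38 chromosome 7, 19606217 to 19629438, minus strand) encodes RelB, the subunit of the alternative route. It had 17.2, 10.3, 13 and 18.6 CPM in KO 1 to KO 4, against 32.0, 30.7, 23.6 and 20.9 CPM in WT 1 to WT 4. Every KO library lay below every WT library, as it did for 6.05% of all tested genes. The log2 change was -0.86 ± 0.20 (SE) and missed the threshold (edgeR adjusted p = 0.0569), at rank 185 of the 11222 tested genes by p. In 19 alternatives the change stayed negative, between -1.20 and -0.50, and it passed in 3 of them: with no filter on low counts (adjusted p = 0.000483, 3.5% of all tested genes called), with DESeq2 (adjusted p = 0.0063, 6.24% called) and with edgeR without KO 4 (adjusted p = 0.0359, 2.05% called). Once transcript length and GC content were offset it was -0.64 ± 0.18 (edgeR adjusted p = 0.125). Without KO 1 and KO 2 it was -0.76 (edgeR adjusted p = 0.172). Dendritic cells are known to express Relb. The 8 conventional dendritic cell markers summed to 151, 130, 595 and 545 CPM in KO 1 to KO 4 and to 267, 512, 417 and 276 CPM in WT 1 to WT 4. The largest part was Cd209a, at 69.8, 51.2, 460 and 423 CPM in KO 1 to KO 4. In WT 1 to WT 4 it had 159, 382, 284 and 171 CPM. For Batf3 the KO values were 16.8, 13.3, 32.0 and 37.0 CPM and the WT values 27.6, 50.6, 67.2 and 48.8 CPM. Batf3 was thus lower in KO within both column-number series, in the direction of Relb. Zbtb46, a defining marker, was at or below 0.343 CPM in all 8 libraries. The 9 plasmacytoid dendritic cell markers summed to 97.1 to 145 CPM in KO and to 189 to 229 CPM in WT, without overlap and in the direction of Relb. Nearly all of that sum was Bst2, an interferon-induced gene (92.3 to 140 CPM in KO and 182 to 223 CPM in WT), while Siglech, a defining marker, had 0 counts in all libraries. Of the 2 tested genes of this list Bst2 passed as lower (edgeR), against 0.838% of all tested genes. The part of both cell types in the Relb values was not tested. In bulk libraries fewer cells that carry a transcript and less of it per cell cannot be told apart.

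Rela (ENSMUSG00000024927; chromosome 19, 5637483 to 5648130, plus strand), the activating subunit of the canonical route, had 31.6, 24.5, 32.7 and 37.7 CPM in KO 1 to KO 4, against 39.6, 44.7, 36.2 and 40.7 CPM in WT 1 to WT 4. Of the 4 KO libraries 3 lay below every WT library, while KO 4 lay above WT 3. Its log2 change was -0.35 ± 0.15 (edgeR adjusted p = 0.200). The same change under the length and GC offsets was -0.02 ± 0.14 (edgeR adjusted p = 0.960). Rela has one of the highest GC contents of the group, 59.4%, as does Nfkb2, against a median of 49.0% over tested genes.

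Nfkb2 (ENSMUSG00000025225; chromosome 19, 46304320 to 46312385, plus strand) encodes p100, at once an inhibitor and the precursor of p52, the partner of RelB. It had 16, 7.43, 11.0 and 16.7 CPM in KO 1 to KO 4, against 18.0, 22.3, 13.8 and 15.7 CPM in WT 1 to WT 4. KO 2 and KO 3 lay below every WT library, and KO 1 and KO 4 within the WT range. The log2 change was -0.45 ± 0.24 (edgeR adjusted p = 0.310), and -0.05 ± 0.20 with the length and GC offsets. Leaving out KO 2 alone gave -0.26. Its exons share 531 bases on the opposite strand with AC114539.1, a long noncoding RNA that has no row in the count table, and 299 bases with Psd, also on the opposite strand, which had between 0 and 5 counts per library. The use of strand in counting is not given, so that reads of Nfkb2 and AC114539.1 in the shared bases cannot be told apart.

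Rel (ENSMUSG00000020275; chromosome 11, 23736847 to 23770970, minus strand) encodes c-Rel, an activating subunit prominent in lymphocytes and myeloid cells. It had 10.1, 11.9, 8.31 and 10.4 CPM in KO 1 to KO 4, against 17.0, 9.76, 12.9 and 10.4 CPM in WT 1 to WT 4. The groups overlapped, and only WT 1 and WT 3 lay above all KO libraries. Its log2 change came to -0.30 ± 0.20 (edgeR adjusted p = 0.404), and -0.07 ± 0.18 with the length and GC offsets. Without WT 1 it was -0.12.

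Nfkb1 (ENSMUSG00000028163; chromosome 3, 135584655 to 135691547, minus strand) encodes p105, which is processed to the DNA-binding subunit p50. It had 32.8, 25.9, 48.4 and 46.2 CPM in KO 1 to KO 4, against 47.3, 57.1, 37.4 and 37.4 CPM in WT 1 to WT 4. The KO libraries of the 1600 series were the lowest pair of all 8, while KO 3 and KO 4 both lay above WT 3 and WT 4. Over all libraries the log2 change was -0.22 ± 0.21 (edgeR adjusted p = 0.562), and single libraries decided its size: it was -0.07 without KO 2, -0.08 without WT 2 and -0.35 without KO 3.

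Among the inhibitors, Nfkbia (ENSMUSG00000021025; chromosome 12, 55489410 to 55492647, minus strand) encodes IkBalpha, which NF-kB induces and which carries it back out of the nucleus. It had 580, 312, 470 and 777 CPM in KO 1 to KO 4, against 686, 599, 668 and 920 CPM in WT 1 to WT 4. Of the KO libraries 3 lay below every WT library, and KO 4 lay above all WT libraries but WT 4. The log2 change was -0.43 ± 0.25 (edgeR adjusted p = 0.356), and -0.19 without KO 1 and KO 2 (edgeR adjusted p = 0.703). With single libraries left out it lay between -0.67 (without KO 4) and -0.23 (without KO 2).

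Nfkbiz (ENSMUSG00000035356; chromosome 16, 55811375 to 55838899, minus strand) encodes IkBzeta, a nuclear IkB that also helps to induce secondary genes such as Il6. It had 6.94, 6.82, 15.2 and 9.0 CPM in KO 1 to KO 4, against 24.4, 7.89, 16.1 and 11.6 CPM in WT 1 to WT 4. KO 1 and KO 2 lay below every WT library. WT 1 was the highest of all, and without it the log2 change was -0.32, against -0.65 ± 0.36 with it (edgeR adjusted p = 0.620 and 0.333). Without KO 3 it was -0.98.

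Tnfaip3 (ENSMUSG00000019850; chromosome 10, 19000910 to 19015657, minus strand) encodes A20, a ubiquitin-editing enzyme that shuts off signalling to IKK. It had 2.75, 2.09, 5.04 and 5.57 CPM in KO 1 to KO 4, against 6.67, 7.06, 5.40 and 3.04 CPM in WT 1 to WT 4. KO 1 and KO 2 lay below every other library. Tnfaip3 had a log2 change of -0.51 ± 0.33 (edgeR adjusted p = 0.398), -0.31 without KO 2, and -0.06 without KO 1 and KO 2 (edgeR adjusted p = 0.944).

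Zc3h12a (ENSMUSG00000042677; chromosome 4, 125118423 to 125127840, minus strand) encodes Regnase-1, an RNase that degrades inflammatory mRNAs such as that of IL-6. It was scarce, with 2.69, 1.60, 1.45 and 1.95 CPM in KO 1 to KO 4, against 2.05, 2.16, 4.21 and 3.28 CPM in WT 1 to WT 4, from 26 to 78 reads per library. Of the KO libraries 3 lay below every WT library, and KO 1 lay above WT 1 and WT 2. Zc3h12a had a log2 change of -0.61 ± 0.30 (edgeR adjusted p = 0.270), and of -0.38 without WT 3.

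**Figure D2:**
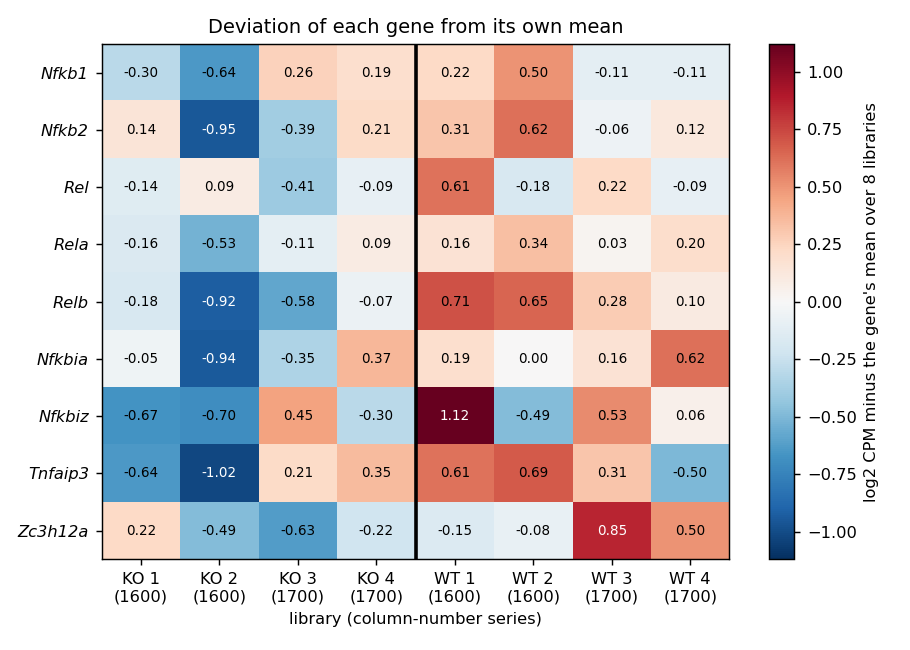
Log2 CPM of each gene (rows) minus its own mean over the 8 libraries (columns, KO left of WT, series in brackets), blue for below and red for above the mean. KO 2 is the lowest library for 7 of the 9 genes, while KO 4 lies below the gene's mean for 4 of them.

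The libraries of a genotype were not alike across these genes. KO 2 was the lowest of the 8 libraries for 7 of the 9 genes and KO 3 for the other 2. WT 2 was the highest for 4 genes, WT 1 for 3, and WT 3 and WT 4 for 1 each. The mean deviation of the 9 genes from their own means was -0.20, -0.68, -0.17 and 0.06 (log2) in KO 1 to KO 4, and 0.42, 0.23, 0.24 and 0.10 in WT 1 to WT 4. KO 4 thus came close to WT 4, and KO 2, the library with the highest neutrophil marker sum, stood lowest. The part of those neutrophil transcripts in these values was not tested.

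Ratios between members do not depend on the scaling of libraries, and they were chosen after the values were seen and are given without a test. The ratio of Relb to Rela counts was 0.545, 0.420, 0.397 and 0.494 in KO 1 to KO 4, against 0.809, 0.688, 0.654 and 0.515 in WT 1 to WT 4. KO 1 lay above WT 4, and the other KO libraries lay below all WT libraries. The ratio of Nfkb2 to Nfkb1 was 0.341 ± 0.112 in KO and 0.390 ± 0.0214 in WT (SD, n = 4 each), with overlapping groups. The ratio of Nfkbia to Rela was 16.5 ± 3.62 in KO and 18.0 ± 3.80 in WT, again with overlapping groups.

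The difference between genotypes was then compared within each column-number series, with 2 KO and 2 WT libraries in each. Within the 1600 series 8 of the 9 log2 changes were negative, and within the 1700 series 7 of the 9 were. None of the 9 passed within the 1600 series, where 0.873% of all tested genes did, nor within the 1700 series, where 1.16% did (edgeR adjusted p between 0.0635 and 0.988 and between 0.110 and 0.869). For Nfkb1 the change was -0.84 ± 0.19 in the 1600 series and 0.34 ± 0.16 in the 1700 series. Both KO libraries lay below both WT libraries in the first and above both in the second, a pattern that 5.38% of all tested genes showed. The interaction term, 1700 minus 1600, was 1.17 ± 0.25 and missed the threshold (edgeR adjusted p = 0.0552). For Tnfaip3 the change was -1.51 ± 0.30 in the 1600 series and 0.32 ± 0.33 in the 1700 series, with an interaction of 1.82 ± 0.45 (edgeR adjusted p = 0.0811). Zc3h12a showed the opposite order, 0.02 ± 0.41 in the 1600 series and -1.14 ± 0.33 in the 1700 series, with an interaction of -1.17 ± 0.52 (edgeR adjusted p = 0.295). Relb was at -1.20 ± 0.25 and -0.50 ± 0.23, and Nfkbia at -0.53 ± 0.30 and -0.35 ± 0.26, in the 1600 and the 1700 series.

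In all, 0 of the 9 interactions passed with edgeR over all genes, where 0.784% of all tested genes did, and 3 of the 9 (Nfkb1, Tnfaip3 and Zc3h12a) had an unadjusted p under 0.05, against 16.1% of all tested genes. With DESeq2 2 of the 9, Nfkb1 (adjusted p = 0.00363) and Tnfaip3 (adjusted p = 0.0224), passed, where 5.55% of the 7338 genes with an adjusted p did. They also passed with no filter on low counts, where 3.04% did, and Nfkb1 passed with edgeR without WT 4, where 5.51% did. Marker sums of other cell types differed between the series too. The neutrophil sums were high in KO 1 and KO 2, as given above. The conventional dendritic cell sums given with Relb and the B cell sums (206, 212, 363 and 307 CPM in KO 1 to KO 4, against 243, 372, 303 and 181 CPM in WT 1 to WT 4) crossed as Nfkb1 did: both KO libraries lay below both WT libraries in the 1600 series and above both in the 1700 series. Among the tested dendritic cell genes, Cd209a and Clec10a crossed in this way. Batf3 was lower in KO in both series, and Flt3 did not cross. The part of the neutrophil, dendritic cell and B cell transcripts in the difference between series was not tested.

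**Figure D3:**
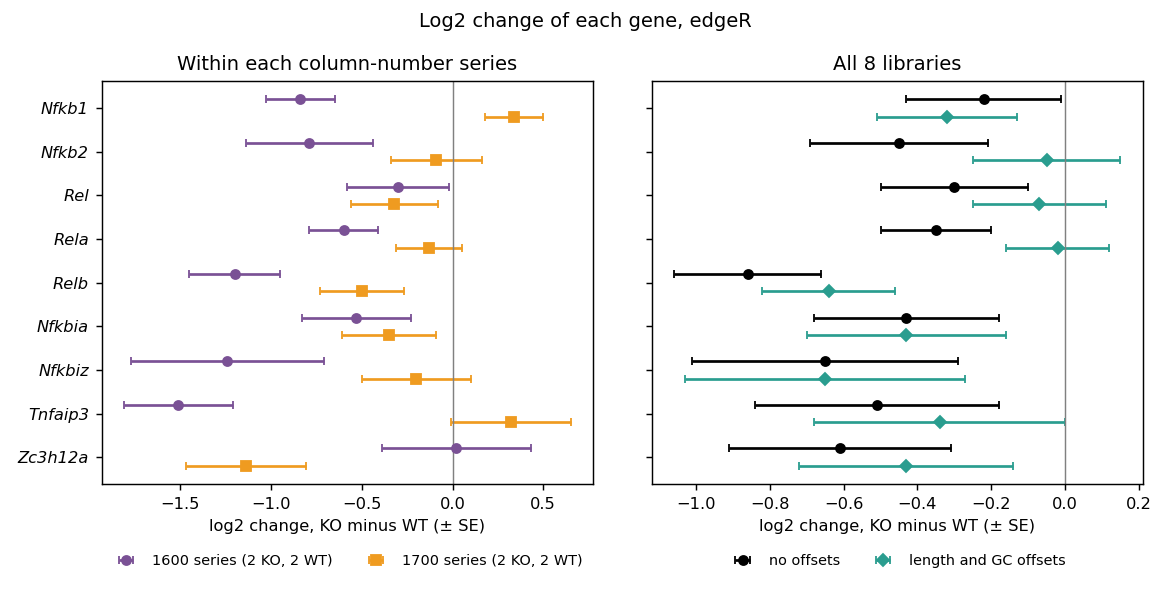
Log2 change, KO minus WT, with its SE from edgeR for each gene (rows): left, within the 1600 series (circles) and the 1700 series (squares); right, over all 8 libraries without (circles) and with (diamonds) offsets for transcript length and GC content. Nfkb1 and Tnfaip3 lie on opposite sides of 0 in the 2 series, and Rela and Nfkb2 move to -0.02 and -0.05 with the offsets.

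Transcript length and GC content were examined because earlier results of these data showed changes that followed both. The 9 genes had a median GC content of 52.9%, against 49.0% over tested genes, and a median transcript length of 3846 bases, against 3011. With per-library offsets for both, 9 of 9 changes stayed negative and the median was -0.34, against -0.018 over all tested genes, while 0 of the 9 passed and 0.00912% of all tested genes did. Nfkbia, Nfkbiz and Nfkb1 had changes of -0.43, -0.65 and -0.32, and those of Nfkb2, Rel and Rela came to between -0.07 and -0.02.

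The remaining pathway was described from lists chosen with earlier results known. Of other NF-kB inhibitors (IkB proteins, deubiquitinases and adaptors), 0 of 19 tested genes passed in either direction (edgeR), against 1.06% of all tested genes. Of the 19, 14 were negative, against 50.4% of all tested genes, and the median log2 change was -0.15. The direction turned between the series, with a median of -0.38 within the 1600 series and 0.08 within the 1700 series, and the median was -0.05 without KO 1 and KO 2. The 4 with the smallest p-values were Pdlim2, Nfkbid, Nfkbib and Commd1. Pdlim2, a nuclear ubiquitin ligase for RelA, averaged 16.8 ± 1.71 CPM in KO and 26.6 ± 4.40 CPM in WT (SD, n = 4 each), and each KO library lay below each WT library, as for 6.05% of all tested genes. Its log2 change was -0.66 ± 0.15 (edgeR adjusted p = 0.0569), which passed with DESeq2 (adjusted p = 0.00756) and with low counts left unfiltered (adjusted p = 0.0127). Nfkbib, the gene of IkBbeta, had 72.5, 45.0, 45.4 and 51.1 CPM in KO 1 to KO 4, against 89.4, 77.6, 72.2 and 71.0 CPM in WT 1 to WT 4, with a log2 change of -0.54 ± 0.16 (edgeR adjusted p = 0.0983). Nfkbid, the gene of the nuclear protein IkBNS, had a log2 change of -0.77 ± 0.23 (edgeR adjusted p = 0.0983), and Commd1, which promotes the decay of RelA, one of 0.34 ± 0.14 (edgeR adjusted p = 0.195). Nfkbid passed with no filter and with DESeq2 (adjusted p = 0.0227 and 0.0384), and Nfkbib with no filter and without KO 1 (edgeR adjusted p = 0.018 and 0.045). With the length and GC offsets Pdlim2 was at -0.49 ± 0.14, Nfkbid at -0.57 ± 0.20, Nfkbib at -0.27 ± 0.13 and Commd1 at 0.28 ± 0.16.

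Of the IKK complex and the adaptors above it, 0 of 34 tested genes passed (edgeR), against 1.06% of all tested genes. Of the 34, 22 were negative, against 50.4% of all tested genes, and the median was -0.14. Here too the median turned, being -0.25 within the 1600 series and 0.04 within the 1700 series, and it was -0.02 without KO 1 and KO 2. Ltbr, the lymphotoxin beta receptor that feeds the alternative route, averaged 35.6 ± 5.17 CPM in KO and 51.5 ± 7.02 CPM in WT (SD, n = 4 each). Its log2 change was -0.53 ± 0.15 (edgeR adjusted p = 0.0801), and -0.18 ± 0.15 with the length and GC offsets, and it passed with no filter and with DESeq2 (adjusted p = 0.0319 and 0.0296). Rbck1, a subunit of the linear ubiquitin ligase, was at -0.43 ± 0.14, Tab2, an adaptor of the kinase TAK1, at -0.70 ± 0.26, and Traf3, a brake on the alternative route, at -0.69 ± 0.27 (edgeR adjusted p between 0.123 and 0.175). With the length and GC offsets Rbck1 was at -0.08 ± 0.11, Tab2 at -0.71 ± 0.26 and Traf3 at -0.23 ± 0.25.

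Of genes known as NF-kB targets, 1 of 33 tested genes passed as lower in KO and 0 as higher (edgeR), against 0.838% and 0.223% of all tested genes. Of the 33, 22 were negative, against 50.4% of all tested genes, and the median was -0.20. That median was -0.53 within the 1600 series, 0.05 within the 1700 series and -0.02 without KO 1 and KO 2. The gene that fell was Ltb, which encodes lymphotoxin beta, a ligand of the alternative route. It had 3.47, 1.84, 2.33 and 2.51 CPM in KO 1 to KO 4, against 8.62, 7.31, 8.37 and 5.27 CPM in WT 1 to WT 4, and no KO library reached a WT library, as for 6.05% of all tested genes. The log2 change was -1.54 ± 0.24 (edgeR adjusted p = 0.0341). It was negative in 19 of 19 alternatives, between -1.72 and -1.16, and passed in 10 of them. Within the 1600 series it was -1.59 and within the 1700 series -1.50 (edgeR adjusted p = 0.0719 and 0.0676). Its edgeR adjusted p lay between 0.0872 and 0.142 when WT 1, WT 3, KO 2 or KO 3 was left out, and at 0.0789 under the length and GC offsets. Vcam1, an adhesion molecule, was at 0.89 ± 0.26 and Cd86, a costimulatory molecule, at 0.40 ± 0.14, while the chemokine gene Ccl5 was at -1.09 ± 0.43 (edgeR adjusted p between 0.0983 and 0.171). For Vcam1 and Cd86 each KO library lay above each WT library. Both were picked by their small p-values, and the share of all tested genes in that order was not computed. Vcam1 was scarce, with at most 2.99 CPM in any library. Under the length and GC offsets Vcam1 was at 0.70 ± 0.25, Cd86 at 0.15 ± 0.12 and Ccl5 at -1.11 ± 0.44.

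Of the RNA-binding proteins and decay factors that act beside Regnase-1, 1 of 12 tested genes passed as lower in KO and 0 as higher (edgeR), against 0.838% and 0.223% of all tested genes. Of the 12, 10 were negative, against 50.4% of all tested genes. The median was -0.54, and -0.31 without KO 1 and KO 2 and -0.27 without WT 4. Zfp36l2, an mRNA-destabilizing protein of the tristetraprolin family, fell. It had 8.20, 6.08, 8.12 and 7.14 CPM in KO 1 to KO 4, against 26.1, 15.9, 28.0 and 9.85 CPM in WT 1 to WT 4. Every KO library lay below every WT library, as for 6.05% of all tested genes, though WT 4 lay close to KO 1. The log2 change was -1.43 ± 0.29 (edgeR adjusted p = 0.0432). It was -1.57 within the 1600 series and -1.32 within the 1700 series (edgeR adjusted p = 0.0498 and 0.179). It passed in 9 of 19 alternatives, and without WT 1, WT 3 or any 1 of the 4 KO libraries its edgeR adjusted p was 0.0534 to 0.161. Rc3h1 and Rc3h2, the genes of the Roquin proteins that share targets with Regnase-1, were at -0.84 ± 0.26 and -0.76 ± 0.27 (edgeR adjusted p = 0.105 and 0.136). With the length and GC offsets the median of this list was -0.21, with Zfp36l2 at -1.31 ± 0.30, Rc3h1 at -0.40 ± 0.23 and Rc3h2 at -0.47 ± 0.26.

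**Figure D4:**
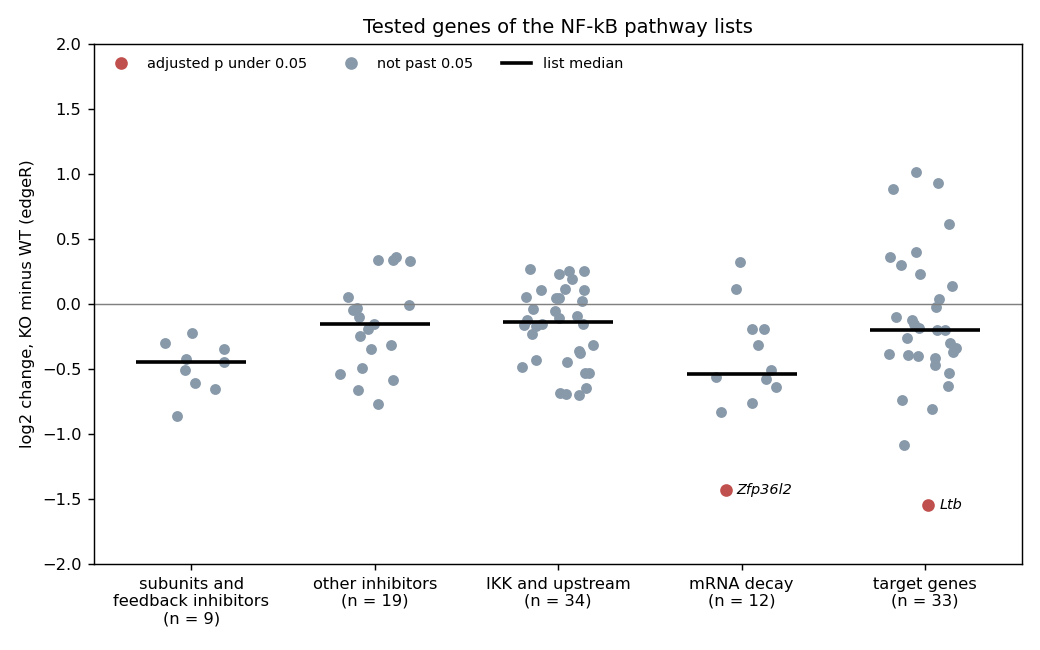
Log2 change, KO minus WT (edgeR), of every tested gene (points) in the 9 subunit and feedback inhibitor genes and in the 4 lists of the remaining pathway, with black bars for list medians and red points for adjusted p under 0.05. The red points are Zfp36l2 at -1.43 and Ltb at -1.54, and the medians lie between -0.54 and -0.14.

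The genes whose levels followed the 9 genes most closely were sought over the 8 libraries, as a description of shared pattern that includes the genotypes. The mean deviation of the 9 genes was followed most closely by Nabp1, 4833438C02Rik, Marcks, Mblac2 and Junb, with a Pearson likeness of 0.974 to 0.994 over 8 libraries. Nabp1, a single-stranded DNA-binding protein gene, had 163, 118, 161 and 180 CPM in KO 1 to KO 4, against 217, 194, 196 and 182 CPM in WT 1 to WT 4. Marcks, an actin-binding protein kinase C substrate, had 22, 16.6, 24.8 and 28.6 CPM in KO 1 to KO 4, against 42.5, 33.4, 36.1 and 35.3 CPM in WT 1 to WT 4. Nfkbia alone was followed most closely by Stat5a, Tspan13 and H2aw, with a likeness of 0.954 to 0.980. These genes were the closest of all 11222 tested genes over few libraries, and none of them passed the test between genotypes (edgeR adjusted p between 0.0640 and 0.519).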

How the data were processed

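Monocyte RNA was copied with an oligo-dT primer and template switching (SMART-Seq v4) and amplified, per the labels' protocols. The authors deposited a table of raw read counts, 1 column per library. Per the submitters' processing notes the build was GRCm38 and the tools were HISAT2 2.0.5 and featureCounts 1.5.0-p3. Settings, annotation and strand use: not given in the sources used here. Because of the design of the kit, oligo-dT priming can favour some transcript lengths, and amplified reads are not independent molecules, so that floors (3 counts) cover counting error only.

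The members and gene lists were chosen with earlier results of these data known. Counts were tested with edgeR 4.0.16 in R 4.3.3 (filterByExpr, TMM, robust quasi-likelihood, Benjamini-Hochberg over all 11222 tested genes, threshold 0.05), and SEs were derived from the test statistic. The filter kept 99.9% of counts. Log2 CPM used a prior count of 2. Named genes were the 9 members, from each list those past 0.05 and the 4 with the smallest p-values, and the closest genes by likeness. Lengths and GC contents came from the longest transcript in GENCODE M21 on GRCm38, with a value for 97.7% of tested genes, and the offsets were smooths of both per library (mgcv 1.9.3). Alternatives also used DESeq2 1.42.0 and limma-voom 3.58.1. Libraries of the same genotype were further apart than sampling noise allows (chi-square per degree of freedom 16.6 to 77.0), and each library was 1 replicate. On simulated KO and WT counts over 11044 genes, edgeR called 63.7% of the genes given a 2-fold difference and 96.1% of those given a 4-fold one, and 3.7% of its calls were false. The simulated counts were drawn for each gene separately, with no library differences shared by many genes. The real libraries had such differences, as in the neutrophil genes of KO 1 and KO 2, so that these shares need not hold for them.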

Additional observations from a re-analysis of the deposited data

Results flagged for a closer look

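Nfkb1 was singled out because its genotype difference had opposite directions in the 2 column-number series: both KO libraries lay below both WT libraries in the 1600 series and above both in the 1700 series. The interaction, 1700 minus 1600, was 1.17 on the log2 scale, and the edgeR test of this difference missed the threshold (adjusted p = 0.0552). In the 18 sets of 4 libraries (9 genes, 2 genotypes), 0 had a library far from its other 3, where chance gives about 1 in 20.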

How the results depend on the processing

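The number of genes called over the whole table was 119 in the reported fit and moved widely, being 742 with no filter on low counts, 761 with DESeq2, 611 at an adjusted p of 0.10, 251 with the number series as covariate, 7 without KO 1 and KO 2, 1 with the length and GC offsets, 0 with limma-voom, and 0 to 515 when single libraries were left out (0 without WT 1, WT 3, KO 2 or KO 3, 3 without WT 4, 64 without KO 1, 235 without KO 4 and 515 without WT 2). Of the 9 genes, 0 were called in the reported fit and 1 (Relb) with no filter, with DESeq2 and at an adjusted p of 0.10, and 0 to 1 without single libraries (1 without KO 4). Genotype differences between the series were called for 0 of the 9 in the reported fit, for 2 with no filter and with DESeq2, and for 0 to 1 without single libraries (1 without WT 4). With single libraries left out, a series can hold 1 library of a genotype, which is then assumed to vary like the others.

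Of 171 recomputed changes of the 9 genes, 4 changed direction, namely Nfkb1 within the 1700 series (0.34) and without KO 1 and KO 2 (0.09), Tnfaip3 within the 1700 series (0.32) and Zc3h12a within the 1600 series (0.02). The series difference of Rel, close to 0, changed sign with no filter (0.03), and over single libraries left out that of Rel lay between -0.48 and 0.32 and that of Nfkbia between -0.23 and 0.70. The causes were not tested.

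Whether the title numbers pair the libraries could not be decided. Same-numbered KO and WT libraries deviated together with correlations of only -0.049 to 0.093, and differently numbered ones with -0.147 to 0.129. A low correlation over few libraries cannot exclude pairing. With the title number as a replicate block, 244 genes were called over the whole table, against 119 without it, and 0 of the 9. Nfkbia had a log2 change of -0.48 ± 0.15 with the block (edgeR adjusted p = 0.15), against -0.43 ± 0.25 without it (edgeR adjusted p = 0.356). The block also brought 4 of the 18 immediate-early genes past the threshold, where 0 passed without it. Zc3h12a, with 26 to 78 reads per library, has the least depth.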

Other observations

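Genes of the immediate-early class, induced within minutes by stimuli and by cell handling, were described beside the 9 genes. Of 18 tested, 16 were negative and 0 passed with edgeR, against 50.4% and 1.06% of all tested genes. The median log2 change was -0.65, and -0.34 with the length and GC offsets. With DESeq2 6 passed, where 6.24% of all genes did, and with no filter on low counts 4, where 3.5% did. Junb, an AP-1 subunit, was among the genes most like the mean of the 9 genes. It had 195, 79.0, 156 and 204 CPM in KO 1 to KO 4, against 391, 277, 293 and 289 CPM in WT 1 to WT 4, and no KO library reached a WT library, as for 6.05% of all tested genes. Its log2 change was -0.98 ± 0.26 (SE, edgeR adjusted p = 0.0932). Klf4, a transcription factor of monocytes, was at -1.30 ± 0.32 (edgeR adjusted p = 0.0611) and Jund at -0.95 ± 0.25 (edgeR adjusted p = 0.0786). With the length and GC offsets Junb was at -0.54 ± 0.26, Klf4 at -1.22 ± 0.32 and Jund at -0.33 ± 0.22.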
